A study of Mus musculus with 12 samples.

Results

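The response of wild-type (WT) microglia to interleukin-4 (IL-4) was described from 6 of the 12 RNA-seq libraries of a series on *Trem2*, a lipid-sensing receptor of microglia. The 6 libraries were chosen by their labels alone. They came from 3 primary cultures of C57BL/6J mice, numbered T13, T33 and T43. Each number labels an untreated library and a library from cells that received 20 ng/ml IL-4 for 48 h. The microglia were grown out of mixed glia of newborn brain over 19 to 23 days, separated from the astrocyte layer by mild trypsinization and kept in medium conditioned by the same glia, so all groups had seen serum and glial factors before IL-4 was added. The other 6 libraries came from microglia of knock-in mice (KI, cultures T15, T22 and T32) that carry the R47H change of *Trem2* on both alleles, treated in the same way and on the same background, and serve here as context. The 3 libraries of each genotype and treatment came from 3 mice, and the untreated and IL-4 libraries that share a number were taken as 1 culture. The values are TPM, an abundance per transcript length scaled to a total of 1000000 in each library. Values of the 3 cultures are given below in the order T13, T33, T43, and differences are IL-4 minus untreated on the scale log2(TPM + 1), which understates the change of genes with few TPM.

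TPM keeps no read counts, so the depth behind a value is unknown. Between 20750 and 23945 genes were listed above 0 per WT library. A value of 0 may be a failed estimate: 3 of 2475 genes whose median exceeded 50 TPM had a 0 in some WT library. Genes without signal are therefore described only as listed at 0. All 18 markers of microglia and macrophages were expressed, and their summed level was 40036 to 41064 TPM in untreated and 44537 to 52398 TPM in IL-4-treated libraries. Culture T13 stood apart in its astrocyte markers, described with the other cell types below.

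IL-4 is a cytokine of type 2 immunity. It binds a receptor made of IL-4Rα and either the common gamma chain or IL-13Rα1, which activates Janus kinases and the transcription factor STAT6. In macrophages this induces alternative activation, a state marked by RELMα (encoded by *Retnla*), the chitinase-like protein Ym1 (*Chil3*) and the mannose receptor (*Mrc1*), and associated with tissue repair and lipid uptake, whereas inflammatory signalling through Toll-like receptors is dampened. Microglia, the resident macrophages of the brain, share much of this programme.

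IL-4 changed 314 of the 10841 genes tested in WT cultures (2.9%, limma with culture as a block, adjusted p under 0.05), of which 248 (2.29%) rose and 66 (0.609%) fell. The leading up-regulated genes encoded an enzyme of arginine and creatine metabolism (*Gatm*), a chaperone of antigen presentation (*Cd74*), a proton pump subunit (*Atp6v0d2*), a lectin (*Lgals3*), an inhibitor of cytokine signalling (*Socs1*) and the clathrin adaptor subunit *Ap2m1*. The leading down-regulated genes encoded the lipopolysaccharide co-receptor *Cd14*, the actin-binding peptide *Tmsb4x*, the Toll-like receptor *Tlr2* and lysozyme (*Lyz2*). The up-regulated genes had a median rise of 2.12-fold, and 53 of them rose at least 4-fold. Among the down-regulated genes the median fall was 1.98-fold, and 7 fell at least 4-fold. In 217 of the 248 all IL-4 libraries lay above all untreated libraries, which held for 11.0% of all tested genes, and in 59 of the 66 all lay below, which held for 5.09%. The genes were called from these same libraries, so their separation is no independent evidence. Counts for the gene lists below are to be read beside the 2.29% higher and 0.609% lower of all tested genes.

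The number of genes called depended on the pairing and on the variance model. Without the culture as a block 120 genes (1.11%) were higher and 27 (0.249%) lower, all of them among the 314, and with no trend in limma's variance model 7 genes were higher (among them *Gatm*, *Socs1*, *Socs2*, *Gm10241*, *Gm25002* and *Mir1938*) and 0 lower, while 1174 genes had an unadjusted p under 0.05. Leaving out culture T43 gave 123 higher and 34 lower. After quantile normalization 65.1% of the called genes were higher, against 79.0% as deposited. With all 12 libraries 151 were higher and 28 lower. Beside the genes for which this is said below, *Il2rg*, *Atf3*, *Tgfb1*, *Itgb2*, *Cd72*, *Ccl5*, *Baiap2l2*, *Lsp1*, *Apoc1*, *Fcrls*, *Ctsl*, *Cd63*, *Ctsz*, *Cd68*, *Id2*, *Cdkn1a*, *Hspa5* and *Ms4a7* were not called in that fit.

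**Figure D1:**
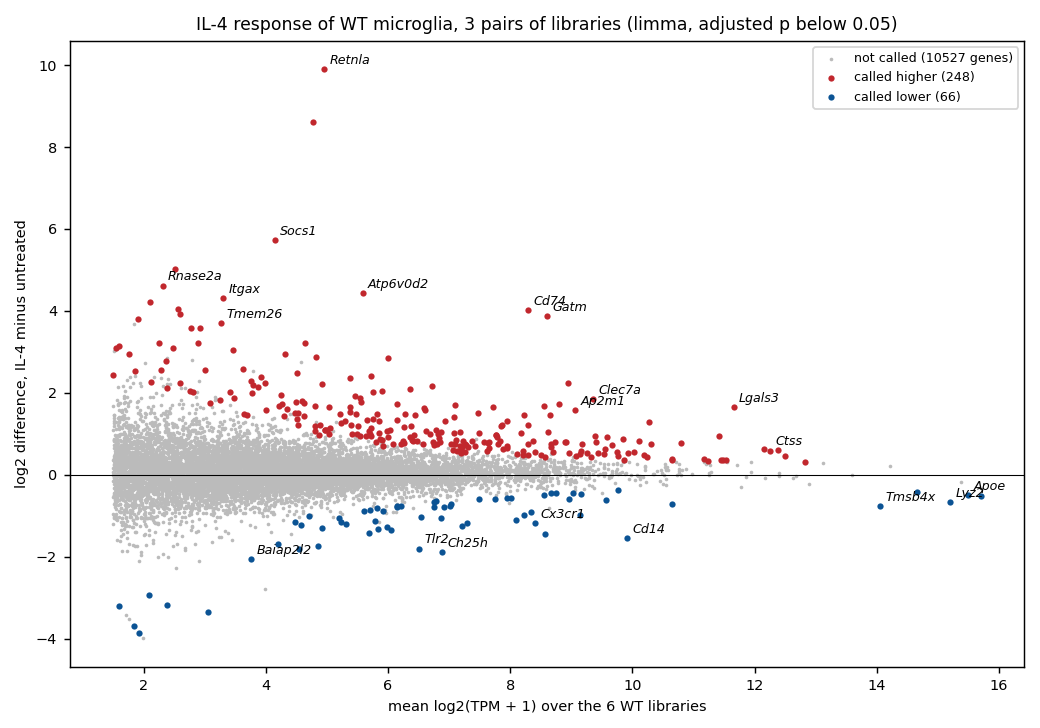
Each point is a gene; the x axis is its mean log2(TPM + 1) over the 6 WT libraries and the y axis its log2 difference between IL-4 and untreated. Red points are the 248 genes called higher, blue points the 66 called lower and grey points the genes not called; *Retnla* lies highest, and the abundant *Apoe*, *Lyz2* and *Tmsb4x* lie at the lower right.

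The ligand-binding chain, the Janus kinases and STAT6 did not pass the test, whereas the common gamma chain, inhibitors of the pathway and several transcription factors did. Of the 13 tested members of IL-4 receptor and STAT6 signalling, 2 were higher and 0 lower, and the median log2 difference of the list was 0.16, against 0.079 over all tested genes. *Il4ra*, the ligand-binding chain, was at 28.2, 18.9 and 17.7 TPM untreated and 25.9, 24.4 and 20.9 TPM with IL-4, a difference of 0.15 (standard error 0.24, adjusted p = 0.855). *Stat6* itself was at 55.7, 90.9 and 101 TPM and then at 69.8, 85.4 and 85.8 TPM (adjusted p = 0.998). The groups overlapped for both genes. *Jak2* was at 8.95, 13.9 and 4.66 TPM untreated and 30.0, 14.2 and 21.2 TPM with IL-4, so that every treated library lay above every untreated library, but its difference of 1.22 did not pass the test (standard error 0.40, adjusted p = 0.189). The members that rose were *Ptpn1*, a phosphatase that acts on Janus kinases, by 0.81 (standard error 0.15, adjusted p = 0.0184), and *Il2rg*, the common gamma chain, by 0.82 (standard error 0.16, adjusted p = 0.0241). For *Il2rg* the groups overlapped, because untreated T13 had more than treated T33, and it was not called without the block. Neither *Il2rg* nor *Ptpn1* was called without T43, nor *Il2rg* without T13, and *Jak2* was called higher without T33.

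The suppressors of cytokine signalling (SOCS) are inhibitors that cytokines induce against their own receptors. *Socs1* (chromosome 16, 10782240 to 10785536, minus strand, GRCm38) went from 4.66, 0 and 1.53 TPM to 189.8, 85.5 and 128 TPM, which is 5.73 (standard error 0.32, adjusted p = 2.2e-05) on the log2 scale. *Socs2* went from 1.72, 0.0326 and 0.105 TPM to 34.8, 19.6 and 18.1 TPM and rose by 4.05 (standard error 0.41, adjusted p = 0.000675). In both genes the untreated libraries were near the bottom of the scale and the treated ones were far above them, with no overlap. They were the called members among 6 tested; the family's median log2 difference was 0.66.

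Of 14 tested transcription factors linked to alternative activation, 6 were higher and 0 lower. *Egr2*, an early growth response factor, went from 8.38, 10.95 and 3.87 TPM to 85.3, 69.5 and 69.7 TPM, a difference of 3.21 (standard error 0.28, adjusted p = 0.000293). *Batf3*, a partner of AP-1 and IRF factors, went from 10.7, 1.91 and 9.71 TPM to 73.0, 41.7 and 52.5 TPM (adjusted p = 0.00120), and *Nfil3*, a repressor of the bZIP family, from 8.15, 4.30 and 21.97 TPM to 103, 54.3 and 76.8 TPM (adjusted p = 0.00146). All 3 genes had separate groups. *Bhlhe40* rose by 1.37, *Myc* by 1.48 and *Atf3* by 0.51, with adjusted p-values of 0.00376, 0.0245 and 0.0302. *Myc* and *Atf3* were not called without the block or without T43, nor *Atf3* after either other scaling or without T13 or T33, and *Bhlhe40* was not called in the fit of all 12 libraries. *Pparg*, a lipid-sensing nuclear receptor of this programme, was at 6.57, 15.3 and 10.9 TPM untreated and 10.3, 35.3 and 37.5 TPM treated. Its difference of 1.14 did not pass (adjusted p = 0.101) except when T13 was left out. *Irf4* was listed at 0 in the 3 untreated libraries and at 0.362, 1.73 and 0.308 TPM with IL-4, and was too low to be tested.

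**Figure D2:**
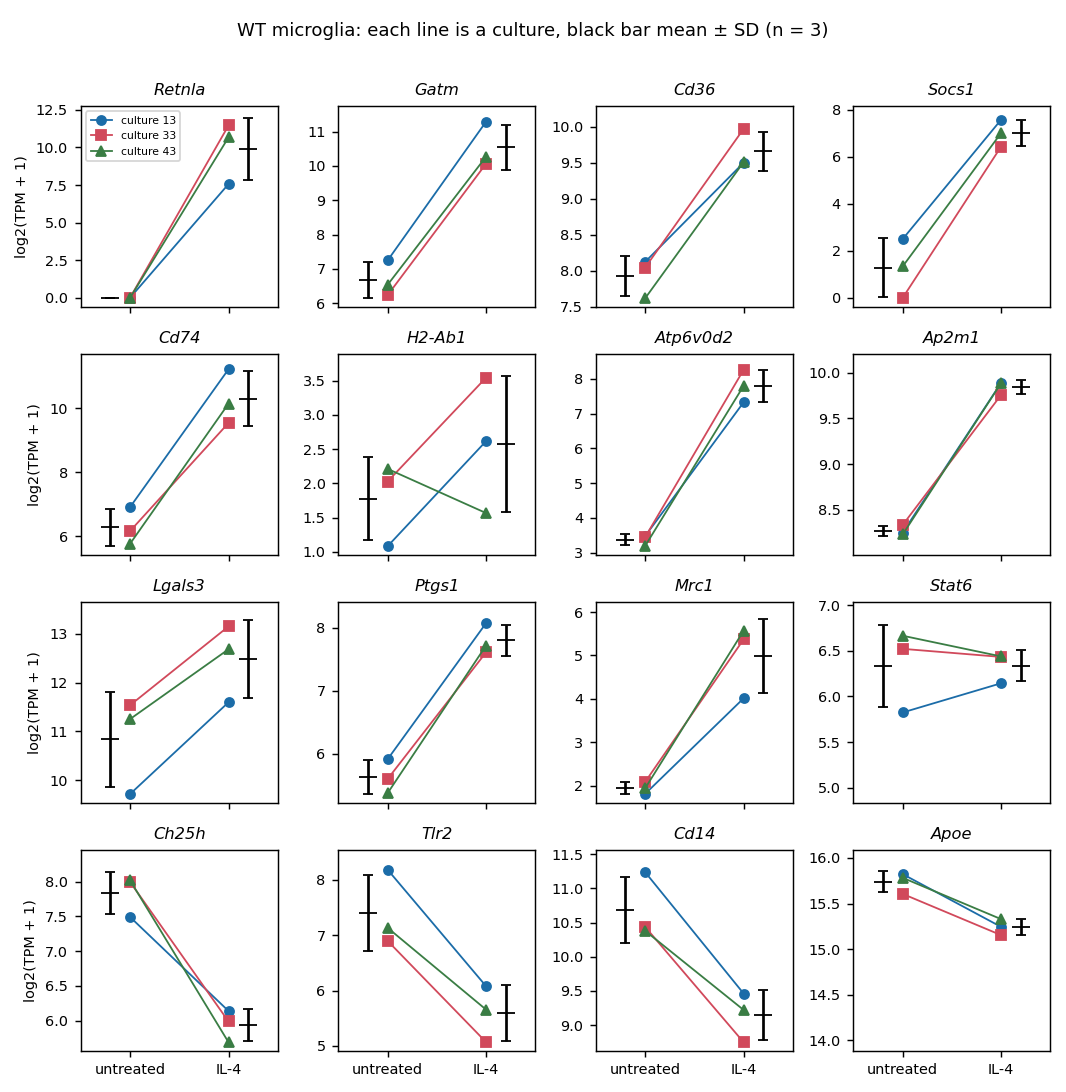
For 16 genes, each line joins the untreated and the IL-4-treated library of a WT culture on the log2(TPM + 1) scale (y axis, with its own range per gene), and black bars give the mean ± SD of 3 libraries. In all but *H2-Ab1* and *Stat6* the 3 lines run the same way.

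Most of the markers of alternative activation rose. Of 32 listed, 22 were abundant enough to test and 18 of these were higher, 0 lower, with a median log2 difference of 1.89. The limit for testing was a mean over all 6 libraries. A marker listed at 0 untreated therefore entered only through its IL-4 libraries and could only come out higher. Markers low in both groups dropped out. The filter thus tilts this count and median upwards, as it can in the other lists. Several of them are used in the field because they respond to IL-4, so the list's direction is no independent evidence. *Retnla* (chromosome 16, 48842551 to 48844461, plus strand), which encodes the secreted protein RELMα, was listed at 0 in every untreated library and at 188, 2822 and 1629 TPM with IL-4 (adjusted p = 2.9e-05). The treated level of T13 was the lowest by a wide margin. *Chil3*, which encodes Ym1, was likewise listed at 0 untreated and at 2.37, 22.2 and 7.13 TPM treated (adjusted p = 0.0305), again lowest in T13. The call of *Chil3* was lost without the block (adjusted p = 0.0825), with all 12 libraries, with a pseudocount of 0.1 and without T43. *Mrc1*, the mannose receptor, went from 2.501, 3.24 and 2.83 TPM to 15.1, 40.4 and 46.4 TPM and rose by 3.04 (standard error 0.38, adjusted p = 0.00215). The eosinophil-associated ribonuclease gene *Rnase2a* was listed at 0 untreated and at 13.4, 31.8 and 30.6 TPM with IL-4 (adjusted p = 0.000647). *Rnase2a* belongs to a family of near-identical copies, so its reads may be shared with them.

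Surface receptors made up much of this group. *Cd36*, a scavenger receptor for lipids, rose from 278, 263 and 195 TPM to 724, 1003 and 728 TPM, a difference of 1.73 (standard error 0.12, adjusted p = 9.0e-05). *Clec7a*, the β-glucan receptor dectin-1, went from 345, 354 and 338 TPM to 1857, 1004 and 1039 TPM and rose by 1.85 (standard error 0.16, adjusted p = 0.000247). *Itgax*, which encodes CD11c, was at 1.26, 3.77 and 0 TPM before IL-4 and reached 42.0, 54.6 and 34.1 TPM. The groups did not overlap for any of these 3 receptors. *Tmem26*, a membrane protein, *Flt1*, a receptor for vascular growth factors, and *Cd200r1*, an inhibitory receptor, rose by 3.70, 1.94 and 1.30. The checkpoint ligands PD-L1 and PD-L2 also rose: *Cd274* went from 14.0, 11.8 and 10.3 TPM to 55.0, 31.7 and 48.5 TPM (adjusted p = 0.00429), and *Pdcd1lg2* from 0.824, 0 and 0 TPM to 15.4, 4.89 and 7.64 TPM (adjusted p = 0.0121). *Pdcd1lg2* was not called without T43 or with a pseudocount of 0.1.

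Growth factor and matrix genes of the list rose as well. *Igf1*, insulin-like growth factor 1, was abundant before treatment, at 1029.8, 1624 and 1496 TPM, and reached 2215, 2384 and 2427 TPM, a difference of 0.79 (standard error 0.10, adjusted p = 0.00310). *Tgfb1* went from 63.8, 72.3 and 82.3 TPM to 134, 112 and 122 TPM and rose by 0.75 (standard error 0.15, adjusted p = 0.0305). Both had separate groups, but neither was called without the block (adjusted p = 0.0615 and 0.0559). *Fn1*, fibronectin, was at 60.7, 8.78 and 9.37 TPM and then at 128, 26.3 and 55.4 TPM, and *Tgm2*, transglutaminase 2, at 2.11, 5.92 and 5.78 TPM and then at 5.72, 37.1 and 37.9 TPM. Each rose within every culture (adjusted p = 0.0111 and 0.0240), yet the groups overlapped. Their adjusted p-values without the block were 0.470 and 0.290. *Fn1*, *Tgm2* and *Tgfb1* were not called without T43, nor *Tgfb1* without T13. The remaining called members were *Fcgr2b* and *Matk*, a kinase that restrains Src family kinases, with differences of 1.19 and 1.99, of which *Matk* was not called in the fit of all 12 libraries.

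Several textbook markers were listed at 0 or were too low to test. The chemokines *Ccl17*, *Ccl22* and *Ccl11*, the lipoxygenase *Alox15*, the lectin *Cd209a* and the cytokine *Il10* were listed at 0 in all 6 WT libraries. *Mgl2*, a galactose-binding lectin, was at 0.000751, 0 and 0 TPM untreated and at 0.939, 5.87 and 17.9 TPM with IL-4, and *Clec10a* was listed at 0 untreated and at 0.0108, 2.74 and 1.62 TPM with IL-4. Both stayed under the limit for testing although every treated library was above every untreated one.

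Promoters of the called genes were searched on both strands, from 250 bases before to 50 bases after each start in RefSeq (GRCm38.p6), for 3 sets of letters. These were the STAT6-type motif, TTC and GAA with 4 bases between them, the spacing of 3 bases that other STAT factors prefer, TTCNNNGAA, and the core of sites of the myeloid factor PU.1, GAGGAA. Overlapping matches of different motifs were all counted. Of the up-regulated genes 185 were in that set and 16 of them (8.65%) had the STAT6-type letters in at least 1 promoter, as did 1 of 49 down-regulated genes (2.04%, *Lcn2*, named here after its value was seen), 6.48% of the tested genes and 8.01% of all genes of the set. The spacing of 3 was found in 6.49% of the up-regulated and 8.12% of the tested genes, and the PU.1-type core in 43.8% and 30.7%. The share of up-regulated genes with STAT6-type letters was thus near that of all genes of the set and above that of the tested genes. The PU.1-type share was above that of the tested genes too. None of these shares was tested. The sequences show where the letters lie in the 5 up-regulated genes of smallest p with a match before the start, and capitals mark the STAT6-type match. For *Lgals3* the window is chr14:47373610-47373909 (plus strand), for *Retnla* chr16:48842359-48842658 (plus strand), for *Dhrs3* chr4:144892827-144893126 (plus strand), for *Clec7a* chr6:129472730-129473029 (minus strand) and for *Itgax* chr7:128129300-128129599 (plus strand).
Lgals3: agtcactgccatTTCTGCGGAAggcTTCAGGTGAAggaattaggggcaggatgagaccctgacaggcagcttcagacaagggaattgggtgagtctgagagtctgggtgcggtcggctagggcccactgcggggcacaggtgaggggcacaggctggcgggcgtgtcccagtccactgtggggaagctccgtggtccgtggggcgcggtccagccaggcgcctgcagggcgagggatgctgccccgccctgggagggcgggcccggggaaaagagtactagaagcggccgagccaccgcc
Retnla: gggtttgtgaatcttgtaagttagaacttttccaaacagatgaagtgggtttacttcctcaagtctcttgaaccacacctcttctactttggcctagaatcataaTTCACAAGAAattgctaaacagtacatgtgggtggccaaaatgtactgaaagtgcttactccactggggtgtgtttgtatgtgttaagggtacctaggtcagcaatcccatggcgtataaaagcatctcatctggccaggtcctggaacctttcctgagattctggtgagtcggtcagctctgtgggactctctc
Dhrs3: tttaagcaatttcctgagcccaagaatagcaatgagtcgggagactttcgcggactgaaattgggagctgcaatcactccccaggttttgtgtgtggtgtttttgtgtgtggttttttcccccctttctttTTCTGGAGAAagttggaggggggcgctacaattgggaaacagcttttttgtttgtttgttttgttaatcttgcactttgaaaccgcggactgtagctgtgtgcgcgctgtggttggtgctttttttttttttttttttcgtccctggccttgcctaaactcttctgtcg
Clec7a: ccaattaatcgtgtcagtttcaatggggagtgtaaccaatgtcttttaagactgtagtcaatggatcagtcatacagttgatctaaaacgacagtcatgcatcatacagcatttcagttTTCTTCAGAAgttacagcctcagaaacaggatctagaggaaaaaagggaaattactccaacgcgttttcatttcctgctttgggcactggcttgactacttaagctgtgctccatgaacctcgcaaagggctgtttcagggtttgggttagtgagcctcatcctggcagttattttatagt
Itgax: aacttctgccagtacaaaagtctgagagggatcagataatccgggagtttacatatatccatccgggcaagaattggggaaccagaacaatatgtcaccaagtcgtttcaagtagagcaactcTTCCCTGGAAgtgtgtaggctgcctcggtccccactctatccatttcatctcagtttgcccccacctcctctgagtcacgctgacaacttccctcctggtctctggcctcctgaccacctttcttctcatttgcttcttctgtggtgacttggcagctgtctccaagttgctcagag
The match of *Retnla* began 145 bases before the start, that of *Dhrs3*, a retinal reductase gene, 119 bases, that of *Clec7a* 131 bases and that of *Itgax* 127 bases before it, and *Lgals3*, the gene of galectin-3, had matches 238 and 225 bases before it. In *Cd36* the match lay after the start. *Gatm*, *Socs1*, *Egr2*, *Chil3* and *Ch25h* had none in these windows, which says only that the letters are not there.

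Arginine can be turned into nitric oxide by nitric oxide synthase or into the creatine precursor guanidinoacetate by the amidinotransferase encoded by *Gatm*. *Gatm* had the smallest p-value of all genes. It went from 151, 74.3 and 91.8 TPM to 2500.2, 1070.3 and 1233 TPM, up by 3.87 (standard error 0.10, adjusted p = 1.2e-07), or 14.6-fold. All treated libraries lay far above all untreated ones. The transporter of cationic amino acids *Slc7a2* went from 1.39, 0.623 and 1.72 TPM to 17.5, 29.6 and 31.5 TPM (adjusted p = 0.00135), and *Sat1*, which acetylates polyamines for export and breakdown, from 662, 526 and 490.4 TPM to 1375, 844 and 997 TPM (adjusted p = 0.000886). These genes had separate groups.

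Some of the enzymes next to these steps did not pass. They include *Gamt*, which makes creatine from guanidinoacetate, at 23.1, 47.8 and 40.7 TPM untreated and 35.9, 37.7 and 25.1 TPM with IL-4 (adjusted p = 0.890), and *Odc1*, which makes putrescine from ornithine and is rate-limiting for polyamines, at 55.5, 46.4 and 49.4 TPM and then 62.8, 47.6 and 58.3 TPM (adjusted p = 0.779). The inducible synthase *Nos2* was listed at 0 in all 6 libraries. Of 20 tested members of the arginine, creatine and polyamine list, 5 were higher and 0 lower, and the list's median log2 difference of 0.16 was close to that of all genes.

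*Cd74*, the invariant chain that guides class II molecules of the major histocompatibility complex (MHC) to their compartment, went from 119, 70.7 and 53.5 TPM to 2370.0, 742 and 1125 TPM, up by 4.01 (standard error 0.18, adjusted p = 5.1e-06), or 16.2-fold. The class II chains that it accompanies did not exceed 10.7 TPM (*H2-Ab1* in treated T33). *H2-Aa* was at 2.31, 0 and 0 TPM untreated and 0.963, 7.46 and 3.95 TPM with IL-4, and *H2-Eb1* at 1.64, 1.82 and 1.41 and then 0, 2.32 and 1.72 TPM; neither reached the limit for testing. *H2-Ab1* was at 1.12, 3.08 and 3.64 TPM and then at 5.14, 10.7 and 1.96 TPM (adjusted p = 0.607), higher in T13 and T33 and lower in T43. *Ciita*, the master regulator of class II transcription, did not exceed 0.00861 TPM in any of the 6 libraries. The peptide-exchange subunit *H2-DMa* was at 27.7, 46.9 and 18.9 TPM and then at 64.4, 61.4 and 40.3 TPM, a difference of 0.87 (standard error 0.21, adjusted p = 0.0726), just outside the threshold.

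Among the other members, *Ctss*, the protease that trims the invariant chain, went from 5388, 3172 and 3647 TPM to 8159.7, 4839 and 5402 TPM and rose by 0.59 (standard error 0.064, adjusted p = 0.00102). Its groups overlapped because untreated T13 exceeded treated T33, and it was not called without the block (adjusted p = 0.420) or after quantile normalization. The co-stimulatory receptor *Cd40* went from 1.18, 3.27 and 3.46 TPM to 12.6, 12.7 and 14.1 TPM (adjusted p = 0.0294), whereas *Cd86* was at 50.4, 24.5 and 27.2 TPM and then at 56.5, 22.9 and 30.4 TPM (adjusted p = 0.919). *Cd40* was not called without T13, without T43 or with all 12 libraries. In all, 3 of the 10 tested members were higher and 0 lower.

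Clathrin coats form with adaptor complexes, AP-2 at the plasma membrane and AP-1 at the trans-Golgi network and endosomes. *Ap2m1*, the cargo-binding µ subunit of AP-2, went from 303, 322 and 299 TPM to 949, 865 and 947 TPM, up by 1.58 (standard error 0.093, adjusted p = 2.9e-05), with very close cultures in both groups. The other AP-2 subunits did not pass. *Ap2s1* was at 223, 300.1 and 267 TPM and then at 300.4, 299 and 329 TPM (adjusted p = 0.413), and *Ap2a1*, *Ap2a2* and *Ap2b1* had adjusted p-values of 0.469, 0.559 and 0.913. *Ap1b1*, the β subunit of AP-1, rose from 46.1, 46.2 and 37.0 TPM to 92.6, 77.3 and 105 TPM (log2 difference 1.07, standard error 0.18, adjusted p = 0.0140). The clathrin light chain *Clta* rose by 0.81 (standard error 0.099, adjusted p = 0.00201), and *Picalm*, a clathrin assembly protein, by 0.75 (standard error 0.15, adjusted p = 0.0265). *Picalm* was not called without the block, without T13 or with all 12 libraries, and without T43 neither *Picalm* nor *Ap1b1* was called, which left 2 genes of the list. The heavy chain *Cltc* went from 207, 135 and 105 TPM to 275, 173 and 213 TPM, higher in each culture, and did not pass (adjusted p = 0.0766). Of the 23 tested genes of this list 4 were higher and 0 lower, against 2.29% and 0.609% of all tested genes.

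The vacuolar ATPase acidifies endosomes and lysosomes, and 5 of its 17 tested subunit genes were higher and 0 lower, with a median log2 difference of 0.047. Over all tested genes 2.29% were higher, 0.609% were lower and the median was 0.079. *Atp6v0d2* (chromosome 4, 19876841 to 19922605, minus strand), a subunit best known from macrophages and osteoclasts, went from 10.1, 9.88 and 8.14 TPM to 159.6, 306 and 222 TPM and rose by 4.43 (standard error 0.22, adjusted p = 1.1e-05), 21.5-fold. *Atp6v0a1* went from 90.8, 108 and 114 TPM to 245, 343 and 313 TPM (log2 difference 1.51, standard error 0.12, adjusted p = 0.000151). Both held their call under every change of scaling and without any single culture. The other called subunits, *Atp6v1a*, *Atp6v1b2* and *Atp6v0c*, rose by only 0.59, 0.49 and 0.35, and lost their call after quantile normalization, after median-ratio scaling, without the block, with all 12 libraries and without T43. *Atp6v1a* and *Atp6v1b2* were also not called without T13, nor *Atp6v1b2* and *Atp6v0c* without T33.

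Eicosanoids are lipid mediators made from arachidonic acid. *Ptgs1*, the constitutive cyclooxygenase 1, rose from 59.3, 47.5 and 40.5 TPM to 268, 194 and 209 TPM, a difference of 2.17 (standard error 0.14, adjusted p = 4.3e-05). *Tbxas1*, thromboxane synthase, went from 114, 139 and 122 TPM to 263, 251 and 248 TPM (log2 difference 1.02, standard error 0.12, adjusted p = 0.00167), and *Ltc4s*, leukotriene C4 synthase, from 10.2, 11.6 and 26.3 TPM to 65.5, 36.9 and 48.3 TPM (adjusted p = 0.0221). In contrast, *Hpgd*, which inactivates prostaglandins, fell from 908, 693 and 797 TPM to 389.7, 396 and 415 TPM, by 0.99 (standard error 0.10, adjusted p = 0.000728). All 4 had separate groups, but *Ltc4s* was not called without the block (adjusted p = 0.0637) or without T13. The inducible cyclooxygenase *Ptgs2* was at 9.91, 2.71 and 2.54 TPM and then at 6.90, 5.20 and 30.4 TPM, highest in treated T43 (adjusted p = 0.481). *Alox5*, 5-lipoxygenase, was at 9.05, 5.45 and 3.82 TPM untreated and at 2.596, 1.46 and 1.14 TPM with IL-4; its groups were apart, but the difference of -1.35 did not pass (adjusted p = 0.207). The list had 3 genes higher and 1 lower of 13 tested, against 2.29% and 0.609% of all tested genes.

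Complement genes were mostly higher, 6 of 10 tested and 0 lower, with a median log2 difference of 0.46. Over all tested genes 2.29% were higher, 0.609% were lower and the median was 0.079. The count of higher complement genes fell to 3 after quantile normalization, after median-ratio scaling and without the block. *C3*, the central component, went from 41.0, 9.58 and 25.9 TPM to 156, 68.2 and 164 TPM, a difference of 2.41 (standard error 0.20, adjusted p = 0.000236). *Cfp*, the stabilizing factor properdin, went from 64.0, 51.9 and 47.7 TPM to 219, 125 and 174 TPM (log2 difference 1.62, standard error 0.16, adjusted p = 0.000547). The chains of C1q, which are among the most abundant transcripts of microglia, rose by less: *C1qa* went from 3559.8, 3736 and 3682 TPM to 6372, 4962 and 5644 TPM (log2 difference 0.62, standard error 0.086, adjusted p = 0.00408), and *C1qb* and *C1qc* rose by 0.46 and 0.60. In all 3 chains every treated library exceeded every untreated one. *C1qa* and *C1qb* were not called after quantile normalization, nor *C1qb* and *C1qc* after median-ratio scaling, and *C1qa* and *C1qb* were not called without the block, nor *C1qb* without T43. *Itgb2*, the β chain of the complement receptors CR3 and CR4, rose by 0.45 (standard error 0.097, adjusted p = 0.0407), and held this call in 2 of the 9 alternatives that kept a filter and a variance trend.

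Of 17 Fc receptors and genes of signalling through immunoreceptor activation motifs (ITAMs), 6 were higher and 0 lower, with a median log2 difference of -0.030. The shares of all tested genes were 2.29% and 0.609%, and their median was 0.079. After quantile normalization 5 were higher and 3 lower, and without T13 6 were higher and 2 lower. *Fcgr2b*, the inhibitory Fc receptor, went from 129, 165 and 165 TPM to 455, 264 and 351 TPM (adjusted p = 0.00804), and *Fcgr3*, an activating one, from 515, 544 and 476 TPM to 843, 918 and 900.0 TPM (adjusted p = 0.00110). The activating high-affinity receptor *Fcgr1* was at 95.5, 106 and 83.5 TPM and then at 82.9, 28.1 and 53.7 TPM, lower in every culture without passing the test (adjusted p = 0.155). *Fyn*, a Src family kinase, rose by 2.05 (standard error 0.17, adjusted p = 0.000202), and the lectin receptor *Clec4a3* by 2.86 (standard error 0.25, adjusted p = 0.000293). The remaining called members were *Cd300lb* and *Cd72*, with differences of 1.32 and 0.56, of which *Cd72* was not called without the block, without T43 or after quantile normalization. *Trem2* itself was at 1328, 1886 and 1538 TPM untreated and at 1190.4, 1550.0 and 1312 TPM with IL-4, lower in each culture by an amount that did not pass (log2 difference -0.22, standard error 0.075, adjusted p = 0.205). After quantile normalization *Trem2* was called lower (log2 difference -0.43, adjusted p = 0.0124). Its signalling partner *Tyrobp* (DAP12) was at 5890.4, 7436 and 6697 TPM and then at 6507, 6677 and 6345 TPM (adjusted p = 0.914).

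Among inflammatory cytokines, inflammasome genes and Toll-like receptors, 1 of 18 tested genes was higher and 2 were lower. *Cd14*, which presents lipopolysaccharide to TLR4, fell from 2415, 1386 and 1331 TPM to 704, 429 and 596 TPM, a difference of -1.54 (standard error 0.12, adjusted p = 0.000146). *Tlr2* (chromosome 3, 83836272 to 83841767, minus strand), a receptor for bacterial lipoproteins, fell from 290.2, 118 and 139.6 TPM to 66.6, 32.6 and 49.4 TPM (log2 difference -1.81, standard error 0.16, adjusted p = 0.000293). T13 was highest in both genes and in both treatments, and the groups stayed apart. *Tlr8*, an endosomal RNA sensor, rose from 31.6, 17.2 and 20.5 TPM to 71.1, 72.4 and 75.1 TPM (log2 difference 1.66, standard error 0.22, adjusted p = 0.00292). *Tlr4* was at 17.9, 20.1 and 34.9 TPM and then at 33.1, 31.0 and 32.99 TPM (adjusted p = 0.484). *Il1b*, which encodes interleukin-1β, was lower in each culture, at 213, 38.7 and 74.0 TPM untreated and 77.2, 18.7 and 59.9 TPM treated, but the difference of -0.92 missed the threshold (adjusted p = 0.0621). *Il1b* was called lower in 5 of these 9 alternatives, after both other scalings, with a higher filter and without T33 or T43. *Tnf* was at 11.5, 15.6 and 18.6 TPM and then at 10.6, 11.8 and 14.3 TPM (adjusted p = 0.755), and *Il6* and *Nos2* were listed at 0 throughout.

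Chemokine genes went both ways. *Ccl9* and *Ccl6*, related CC chemokines of mouse myeloid cells, rose: *Ccl9* from 72.4, 68.5 and 85.0 TPM to 283, 226 and 237 TPM (log2 difference 1.71, standard error 0.14, adjusted p = 0.000165) and *Ccl6* from 102, 26.6 and 49.3 TPM to 269.6, 83.2 and 129 TPM (log2 difference 1.46, standard error 0.14, adjusted p = 0.000547). *Ccl7*, a monocyte attractant, went from 5.19, 12.5 and 9.59 TPM to 20.6, 75.2 and 92.4 TPM (adjusted p = 0.00167). *Ccl5*, which attracts T cells and monocytes, rose within cultures by 0.48 with overlapping groups. The inflammatory chemokine *Ccl3* fell from 427, 354 and 419.6 TPM to 243, 143 and 185 TPM, by 1.10 (standard error 0.12, adjusted p = 0.00107). Its neighbour *Ccl4* was at 296, 645 and 760.1 TPM and then at 281, 288 and 336 TPM, a log2 difference of -0.80 that did not pass (adjusted p = 0.0631) except after quantile normalization, with a higher filter or without T13. *Cxcl14* fell by 1.04 (standard error 0.15, adjusted p = 0.00529). *Cx3cr1*, the microglial receptor for the neuronal chemokine fractalkine, fell from 731, 428 and 423 TPM to 382, 141 and 209 TPM (log2 difference -1.18, standard error 0.13, adjusted p = 0.00135). Of these, *Ccl6*, *Ccl7*, *Ccl5*, *Cxcl14* and *Cx3cr1* were not called without the block, nor *Ccl5* after either other scaling or without T33 or T43. In total 5 of 17 tested genes were higher and 3 lower, against 2.29% and 0.609% of all tested genes.

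Other genes with small p-values and no place in the lists were *Dhrs3*, a retinal reductase, which went from 193, 219.8 and 213 TPM to 670.0, 622 and 706 TPM (log2 difference 1.67, standard error 0.10, adjusted p = 3.3e-05), and *Fam20c*, a kinase of secreted proteins, from 157, 167 and 224 TPM to 434, 452 and 630.5 TPM (log2 difference 1.46, standard error 0.098, adjusted p = 6.5e-05). *Rnf19b*, a ubiquitin ligase, rose by 2.10 (standard error 0.15, adjusted p = 9.3e-05), and *Dusp4*, a phosphatase of MAP kinases, by 2.57 (standard error 0.39, adjusted p = 0.00709). *Cytip*, a regulator of adhesion, rose by 1.45 (standard error 0.30, adjusted p = 0.0326), but was not called without T13, without T43 or with all 12 libraries, and *Dusp4* was not called without T43. On the lower side were *Coro1a*, an actin regulator of leukocytes, from 400.0, 465 and 402 TPM to 211, 224 and 202 TPM (log2 difference -0.99, standard error 0.099, adjusted p = 0.000634), and *Cybb*, the catalytic subunit of the phagocyte NADPH oxidase, from 476, 388 and 474 TPM to 259, 199.6 and 249.5 TPM (log2 difference -0.92, standard error 0.096, adjusted p = 0.000825). The lectin receptor *Clec4n* and the actin-associated *Baiap2l2* and *Lsp1* had log2 differences of -1.81, -2.06 and -1.73, all called lower, of which *Lsp1* had overlapping groups, and neither *Baiap2l2* nor *Lsp1* was called without the block or without T43. The reference genes *Rps28*, *Arf1* and *H3f3b* did not pass, with adjusted p-values of 0.938, 0.914 and 0.424.

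Of 24 tested genes of lipoproteins and cholesterol handling, 4 were lower and 0 higher (2 were higher without T33), while the list's median log2 difference, 0.086, was near that of all genes. *Ch25h*, which makes the signalling oxysterol 25-hydroxycholesterol, fell from 179, 254 and 258 TPM to 69.5, 62.5 and 50.7 TPM, a difference of -1.89 (standard error 0.18, adjusted p = 0.000512). *Apoc2*, the activating cofactor of lipoprotein lipase, fell from 261, 197 and 247 TPM to 90.5, 119 and 103 TPM (log2 difference -1.17, standard error 0.16, adjusted p = 0.00353), and *Apoc1* from 279, 94.1 and 93.1 TPM to 198, 55.3 and 55.5 TPM within cultures (adjusted p = 0.0305). *Apoe*, the main lipid carrier of the brain, fell from 57962, 49874 and 56360.4 TPM to 38808, 36456 and 41164 TPM (log2 difference -0.49, standard error 0.059, adjusted p = 0.00169). The groups were apart except for *Apoc1*, which was far more abundant in T13 than in the other cultures in either treatment, and which was not called without the block, without T13 or without T43. The cholesterol exporter *Abcg1* was higher in every treated library, at 15.9, 16.5 and 15.5 TPM against 1.41, 9.53 and 3.33 TPM, but its difference of 1.82 did not pass (adjusted p = 0.0711). The lipase gene *Lpl* (adjusted p = 0.106) and the exporter gene *Abca1* (adjusted p = 0.902) did not pass.

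*Apoe* was among several very abundant transcripts that fell. The 10 most abundant genes of the untreated libraries took 30.7%, 29.7% and 33.1% of the TPM there and 23.0%, 24.7% and 24.4% after IL-4, so the groups did not overlap in this share either. The 10 genes were picked by their untreated values, which favours a fall. Of these 10 genes 5 were called lower and 0 higher. They were *Apoe*, the ferritin heavy chain *Fth1* (75990.4, 51230.3 and 66461 TPM, then 45513, 44484 and 44319.9 TPM), *Lyz2* (42559, 50607 and 49099.8 TPM, then 26192, 31045 and 32634 TPM), the protease cathepsin D (*Ctsd*, 23742, 33013 and 33655 TPM, then 19510.0, 25420.4 and 22801 TPM) and *Tmsb4x* (21618, 22844 and 21971 TPM, then 13376, 13020.5 and 12565 TPM). TPM shares a fixed total, so each value is relative to these genes. After quantile normalization or without the block *Apoe*, *Fth1*, *Lyz2* and *Ctsd* were no longer called. After median-ratio scaling *Apoe*, *Fth1* and *Ctsd* were not called, nor *Fth1* and *Ctsd* without T43 or with all 12 libraries, whereas *Tmsb4x* was called under every change of scaling.

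**Figure D3:**
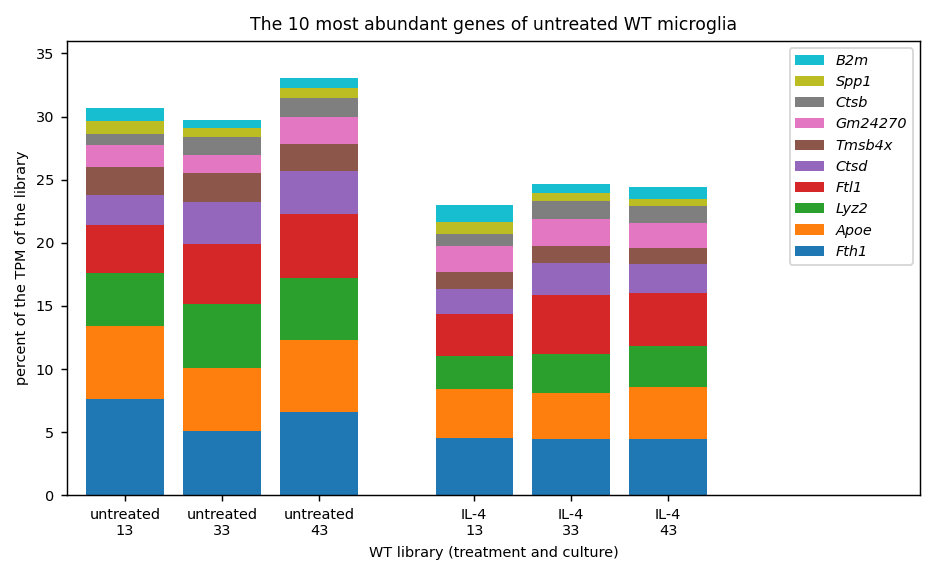
Stacked bars give the percent of the TPM of each WT library (y axis) held by the 10 genes most abundant in the untreated libraries, with untreated cultures on the left and IL-4-treated cultures on the right (x axis). The bars reach 29.7% to 33.1% without and 23.0% to 24.7% with IL-4.

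Of 19 tested genes of the homeostatic signature, 1 was higher and 3 were lower. After quantile normalization 0 were higher and 5 lower, and with the filter at a mean log2(TPM + 1) of 3, 2 were higher and 5 lower. *Serpine2*, a secreted protease inhibitor, fell from 801, 668 and 448 TPM to 357, 187 and 181 TPM (log2 difference -1.43, standard error 0.13, adjusted p = 0.000380), and *Gpr84*, a receptor for medium-chain fatty acids that inflammation induces, fell by 1.35 (standard error 0.17, adjusted p = 0.00215). *Cx3cr1* was the other down-regulated member, and *Fcrls* rose by 0.54 (standard error 0.12, adjusted p = 0.0485), a call lost after both other scalings, without the block and without T13 or T43. *Gpr84* was not called in the fit of all 12 libraries. The defining markers *P2ry12*, at 21.4, 24.0 and 19.2 TPM and then 30.5, 8.29 and 31.9 TPM, and *Tmem119*, at 82.0, 60.9 and 72.9 TPM and then 80.3, 32.3 and 66.0 TPM, had overlapping groups and did not pass (adjusted p = 0.964 and 0.502).

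All 25 genes of the disease-associated microglia signature were tested, and 11 were higher and 4 lower, against 2.29% and 0.609% of all tested genes. *Lgals3* (chromosome 14, 47367751 to 47386160, plus strand), which encodes galectin-3, rose from 837, 2968 and 2437 TPM to 3096, 9123 and 6588 TPM, a difference of 1.65 (standard error 0.09, adjusted p = 2.2e-05). T13 was the lowest culture in both groups. Without the block its adjusted p was 0.219, and the cultures differed by more than 3-fold before treatment. *Cst7*, a cystatin, went from 269, 259.9 and 199 TPM to 1152, 486 and 519.8 TPM (adjusted p = 0.00235), and *Timp2*, an inhibitor of metalloproteases, from 271, 322 and 234 TPM to 564, 521 and 622 TPM (adjusted p = 0.00229). Besides *Clec7a*, *Itgax* and *Ccl6*, the other called members were *Cd52* (difference 0.74), *Ctsl* (0.47), *Cd63* (0.36), *Ctsz* (0.38) and *Cd68* (0.36). The last 4 of these were not called after quantile normalization, median-ratio scaling, without the block or without T43, nor *Cd63*, *Ctsz* and *Cd68* without T13, and *Cd52* and *Ccl6* were not called without the block. *Cst7* was not called in the fit of all 12 libraries. The members that fell were *Lyz2*, *Apoe*, *Ctsd* and *Fth1*, described above. *Spp1*, *Gpnmb* and *Cd9* did not pass, with adjusted p-values of 0.317, 0.578 and 0.866, although *Spp1* was called lower after quantile normalization.

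None of 19 interferon-stimulated genes was called by limma, and 2 had an unadjusted p under 0.05. Among the alternatives, 1 was called lower after quantile normalization, 1 lower with the higher filter, and 1 higher and 1 lower without T33. *Irf7*, a master regulator of that response, was at 103, 14.9 and 35.2 TPM and then at 153, 12.3 and 33.3 TPM, so that T13 stood far above the others with and without IL-4. In the TGF-β and BMP pathway 2 of 18 were higher, *Id2* (log2 difference 0.57, standard error 0.11, adjusted p = 0.0235) and *Tgfb1*, and 1 was lower, the decoy receptor *Bambi*, which went from 38.5, 36.8 and 31.2 TPM to 16.2, 15.4 and 12.5 TPM (log2 difference -1.22, standard error 0.23, adjusted p = 0.0221). *Id2* and *Tgfb1* were not called without the block or after median-ratio scaling, nor *Id2* after quantile normalization, nor *Id2* and *Bambi* without T43, nor *Bambi* without T13. The receptors *Tgfbr1* and *Tgfbr2* did not pass (adjusted p = 0.775 and 0.317). Of 23 tested genes of cell division only the inhibitor *Cdkn1a* was called, higher by 0.56 (standard error 0.10, adjusted p = 0.0206), and not after other scalings, without the block or without T13 or T43. *Mki67*, the usual marker of proliferation, did not exceed 1.31 TPM.

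Among 12 tested stress and immediate early genes, *Hmox1*, heme oxygenase 1, fell from 2176, 1935 and 2063 TPM to 1342, 1352 and 1070.3 TPM (log2 difference -0.72, standard error 0.092, adjusted p = 0.00253), and *Fos* fell from 101, 103 and 86.8 TPM to 31.0, 40.5 and 49.4 TPM (log2 difference -1.27, standard error 0.19, adjusted p = 0.00721). The chaperone of the endoplasmic reticulum *Hspa5* rose by 0.55 (standard error 0.10, adjusted p = 0.0221), and was not called without the block, without T43 or after median-ratio scaling. *Fos* was not called in the fit of all 12 libraries. The heat shock genes *Hspa1a* and *Hspa1b* were too low to test.

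**Figure D4:**
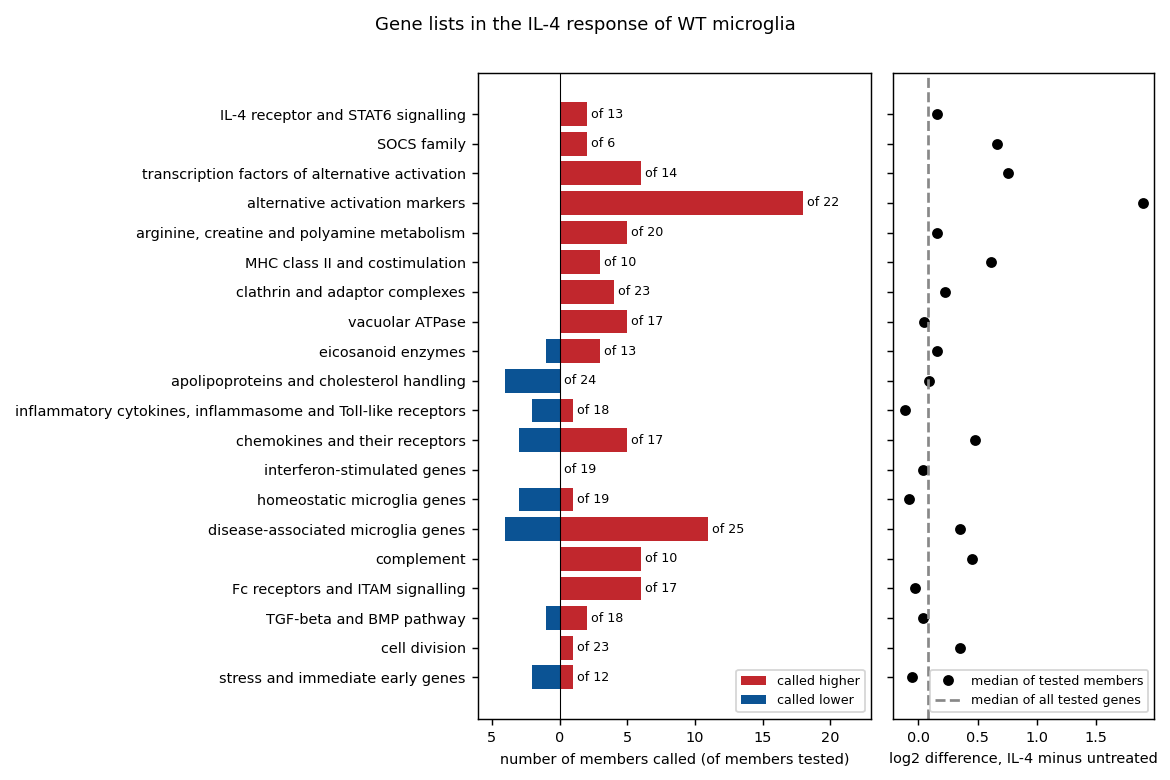
Left, the number of members of each gene list called higher (red, to the right of 0) or lower (blue, to the left), with the number tested beside each bar. Right, the median log2 difference of the tested members (points) beside that of all tested genes (dashed line, 0.079); the markers of alternative activation stand furthest to the right at 1.89.

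Markers of other cell types were measured in the same libraries. The 15 astrocyte markers summed to 789, 233 and 192 TPM in untreated cultures and to 702, 223 and 192 TPM with IL-4, so T13 was the highest in both treatments. *Gfap* was at 389, 119 and 88.1 TPM and then at 368, 98.6 and 104 TPM. Of the 10 tested, limma called 0, and 0 had an unadjusted p under 0.05. Fibroblast markers summed to 21.0, 13.3 and 8.03 TPM untreated and to 122, 27.4 and 242 TPM with IL-4. *Col1a1* was at 4.43, 3.61 and 2.93 TPM and then at 7.22, 6.25 and 85.9 TPM, so most of it was in treated T43 (adjusted p = 0.246). *Postn*, the matrix protein periostin, went from 2.80, 0 and 0 TPM to 106, 10.00 and 10.1 TPM, most of it in treated T13, and was called higher (adjusted p = 0.00146), though not without the block. It was the called gene of 4 tested. Of this list 2 genes were called higher without T13, 2 without T33 and 0 with the filter at a mean of 3. Fewer cells of a type and less RNA per cell cannot be told apart in such bulk libraries, and the part of fibroblasts in these values was not tested.

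Neuronal markers summed to between 7.08 and 25.3 TPM, and *Syt1*, *Slc17a7* and *Nefl* were listed at 0. The endothelial marker *Cldn5* and the perivascular macrophage marker *Lyve1* were also listed at 0 in all 6 libraries, and *Cd163* did not exceed 0.0546 TPM. *Mrc1* and *Ms4a7*, which are counted as markers of perivascular macrophages as well, were the called members of that list, of 4 tested; *Ms4a7* rose by 0.56 (standard error 0.096, adjusted p = 0.0132), and was not called without the block, without T43 or after other scalings. Markers of lymphocytes, neutrophils and mast cells summed to 3.09 to 15.3 TPM untreated and to 1.17 to 3.71 TPM with IL-4, with 7 of the 14 listed at 0 throughout. Of oligodendrocyte, neuronal, and endothelial and mural markers, 6, 3 and 3 were tested and limma called 0, with 1, 0 and 2 at an unadjusted p under 0.05.

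The cultures differed in the treated levels of some genes. With IL-4, T13 had less *Retnla*, *Chil3*, *Mrc1* and *Tgm2* than T33 and T43, and *Mgl2* was lowest there too. *Gatm*, *Cd74*, *Socs1* and *Clec7a* were at their highest in the same library. The within-culture log2 differences of *Mrc1* were 2.20, 3.29 and 3.63, against 2.42, 1.502 and 1.62 for *Clec7a* and 4.04, 3.83 and 3.73 for *Gatm*. Those of *Cd74* were 4.30, 3.37 and 4.37, about equal in T13 and T43, and those of *Socs1* were 5.08, 6.43 and 5.67, smallest in T13, so a high treated level was not always a large within-culture difference. The same culture had the most astrocyte marker RNA, and the part of that in these differences was not tested. Leaving it out gave 222 genes higher and 72 lower, with 221 genes in common with the 314.

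Several of the largest differences belonged to loci of short RNAs and processed pseudogenes. Of the 314 called genes 289 were annotated as protein coding, 9 as miRNA and 8 as processed pseudogenes. *Gm25002*, a predicted miRNA locus, was listed at 0 in the untreated libraries and at 20.1, 16.4 and 16.3 TPM with IL-4. *Gm22015*, *Mir1903* and *Gm22395* went the other way, from 6.64, 6.26 and 54.3 TPM, 18.8, 4.78 and 17.2 TPM and 9.63, 4.45 and 12.2 TPM to 0 in every treated library, and *Gm23566* from 15.03, 18.5 and 11.5 TPM to 0, 4.28 and 0 TPM. The pseudogene *Gm10241* did not exceed 0.00460 TPM untreated and was at 34.4, 22.03 and 41.9 TPM with IL-4. *Gm12191* and *Gm5776*, also pseudogenes, fell from 33.5, 23.2 and 20.9 TPM to 16.4, 0.00909 and 0.00946 TPM and from 7.48, 18.9 and 8.44 TPM to 2.59, 0.00483 and 0.00525 TPM, and *Gm20503* fell by 1.69. Without T43 *Mir1903*, *Gm23566*, *Gm12191*, *Gm5776* and *Gm20503* were not called, nor the last 4 without the block. The libraries were primed on poly(A), short loci have few positions for a fragment, and reads of a pseudogene can come from its parent gene, so these values are uncertain.

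The KI cultures were not used to choose or fit any of these calls, so they show how far the WT differences recur in other cultures. Of the 248 up-regulated genes, 192 (77.4%) were higher in all 3 KI cultures, which held for 14.1% of all tested genes. Of the 66 down-regulated genes, 35 (53.0%) were lower in all 3, against 12.5% of all tested genes. The median log2 difference of the up-regulated genes was 1.08 in WT and 0.78 in KI, and that of the down-regulated genes was -0.99 and -0.44. Since the genes were called in WT, their WT medians were selected to be large, and nothing is read from this gap. In the KI cultures alone 32 genes passed, 28 higher (0.258%) and 4 lower (0.0369%). The 4 were *Tlr2*, *Cd14*, *Cx3cr1* and the pseudogene *Gm7206*, which was chosen for naming after its values were seen. Of the 32, 29 were called in WT in the same direction, which is 90.6% of the KI calls and 9.24% of the WT calls.

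The difference of the response between the genotypes was tested gene by gene, and limma called 0 of 10841 genes, with 539 at an unadjusted p under 0.05 and a smallest adjusted p of 0.207. The 5 smallest p-values belonged to *Gm25000*, *Mir339*, *Gm22107*, *Socs1* and *Mir1938*, 4 of which are short RNA loci. *Socs1* had within-culture log2 differences of 5.08, 6.43 and 5.67 in WT and 2.59, 3.97 and 1.78 in KI, a WT minus KI difference of 2.95 (standard error 0.57, unadjusted p = 0.000230, adjusted p = 0.624). The log2 differences of *Ch25h* were -1.35, -2.004 and -2.33 in WT and 0.46, -1.19 and -0.19 in KI, a WT minus KI difference of -1.59 (standard error 0.40, unadjusted p = 0.00196, adjusted p = 0.806). *Ch25h* started from 19.9, 67.0 and 43.6 TPM in the untreated KI cultures, below the 179, 254 and 258 TPM of untreated WT. For *Gatm* the WT minus KI difference was -0.36 (standard error 0.18, unadjusted p = 0.0654, adjusted p = 0.969). None of these differences passed the adjusted threshold.

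**Figure D5:**
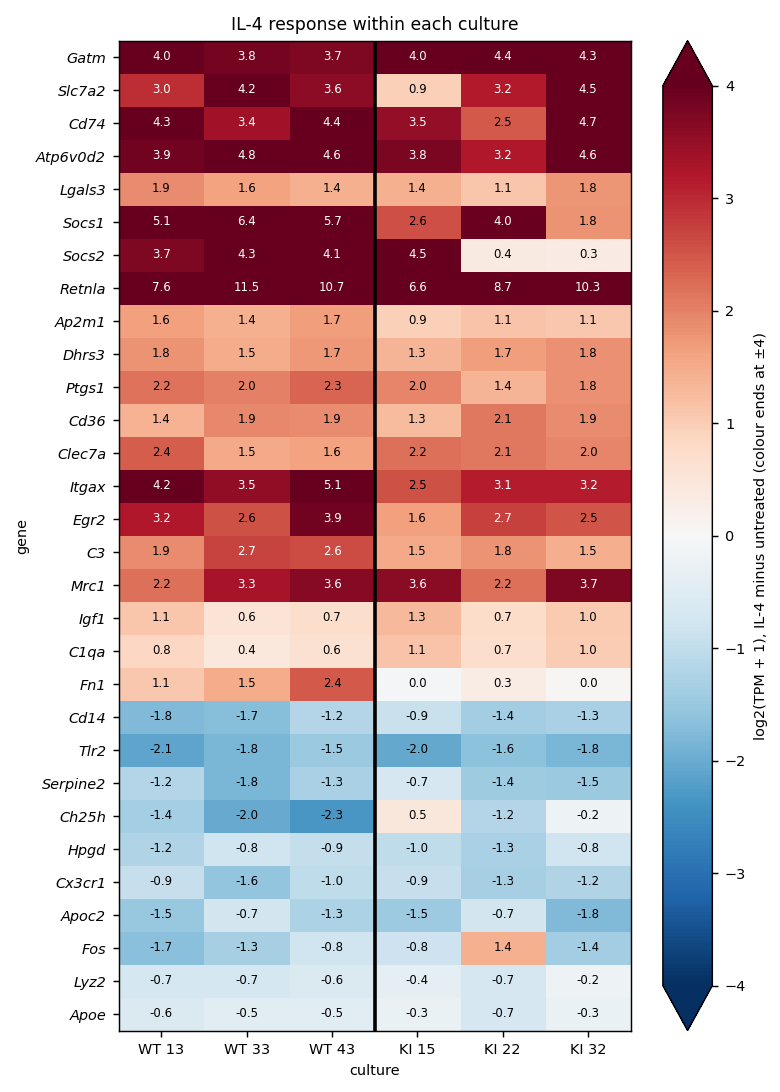
Colours and numbers give the log2 difference between IL-4 and untreated within each culture (x axis, 3 WT cultures left of the line and 3 KI cultures right of it) for 30 genes named in the text (y axis). *Gatm*, *Clec7a* and *Dhrs3* are positive in all 6 cultures; *Ch25h* is negative in the 3 WT cultures and mixed in KI.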

How the data were processed

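RNA of primary mouse microglia was sequenced from both ends in 12 libraries after poly(A)-primed amplification (SMART-Seq v4). Per the methods, Trim Galore was used by the authors for trimming, Salmon for quantification against ENSEMBL GRCm38 and tximport for summing to genes. Tool versions are not given in the sources used here. The deposited values are TPM per gene and library, and the authors' read counts, which they tested with DESeq2, were not analysed here. TPM keeps no depth, so no counting error is given and precision rests on the spread of the IL-4 difference between cultures. 

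Of 48623 identifiers in the table, 48419 had an entry in GENCODE vM21, from which symbols and coordinates were taken. Where identifiers shared a symbol, the one with the highest mean kept it. Values were taken as log2(TPM + 1). Genes with a mean above 1.5 over the 6 WT libraries (10841 genes) entered a limma fit (version 3.58.1, R 4.3.3) with treatment and culture number as coefficients and a variance trend, 2-sided, and Benjamini-Hochberg adjusted p-values under 0.05 were called. The difference between genotypes used all 12 libraries with a treatment coefficient per genotype. An exact sign-flip test of 3 pairs cannot go below 0.25, so none was run. Python 3.11.15, pandas 2.3.3 and numpy 2.4.6 were used for tables.

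Libraries were paired by the culture number that their titles share, and the block is the main design because the comparison was defined within cultures. Deviations from the group mean of same-numbered libraries correlated at 0.34, 0.11 and 0.089 for T13, T33 and T43 (across genes), against -0.19 to 0.076 for different numbers. In KI they correlated at 0.35, 0.12 and 0.083, against -0.28 to 0.17, so 1 pair of different numbers exceeded 2 pairs of the same number.

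Members and gene lists were chosen with earlier results of these data known. Genes named are a hand-chosen list of IL-4 genes, markers and reference genes from the study's text and supplements, the 12 with the smallest p and the 12 with the largest difference in each direction, the members of 28 lists, and the 5 with the smallest p for the difference between genotypes. Promoter sequences are RefSeq's (GRCm38.p6). Alternatives were the replicate block left out, all 12 libraries, a pseudocount of 0.1, no filter, a filter at a mean log2(TPM + 1) of 3, scaling by quantiles or by median ratios, no variance trend and each culture left out. A p-value of the main fit weighs the mean IL-4 difference against its spread between 3 cultures from separate mice. Differences of level between cultures are removed by the block, and the variance of each gene is drawn towards a trend over all tested genes. Some genes that meet these rules are not reported here; counts include them.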

Additional observations from a re-analysis of the deposited data

Results flagged for a closer look

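*Gm25000*, a predicted miRNA locus, was higher with IL-4 in all 3 WT cultures, at 0, 0 and 5.94 TPM untreated and 18.6, 6.70 and 27.7 TPM treated (log2 difference 3.09), and lower in all 3 KI cultures (log2 difference -2.16). *Gm22107*, a small nuclear RNA locus, was at 13.5, 6.71 and 13.6 TPM and then at 52.5, 11.7 and 28.1 TPM in WT (log2 difference 1.20) and was also lower with IL-4 in every KI culture (log2 difference -1.26). They stood out because every WT culture moved one way and every KI culture the other. By limma the WT minus KI difference was 5.26 (standard error 0.77, unadjusted p = 1.9e-05, adjusted p = 0.207) for *Gm25000* and 2.46 (standard error 0.42, unadjusted p = 8.0e-05, adjusted p = 0.291) for *Gm22107*, so neither passed. Both are short loci with few TPM.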

How the results depend on the processing

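No called gene changed sign under any of the 11 alternatives, but most of these could not change a sign. Leaving out the block or the trend, using all 12 libraries or changing the filter gives the same difference by design. All called genes also moved the same way in each of the 3 WT cultures, which fixes the sign with a culture left out or another pseudocount. Only the other scalings could have changed it. The main counts were 248 higher and 66 lower. They were 120 and 27 without the replicate block, where the pairing of libraries by culture is ignored, 151 and 28 with all 12 libraries, 0 and 0 with no filter on low values (limma, 1900 of 27705 genes at an unadjusted p under 0.05), 7 and 0 with no variance trend, and 205 and 110 after quantile normalization. With each culture left out they ranged from 123 to 352 higher and from 34 to 90 lower, and both lowest counts came without T43. A filter at a mean log2(TPM + 1) of 3 gave 267 and 85, a pseudocount of 0.1 gave 217 and 55, and median-ratio scaling gave 203 and 66. Of the genes on the lists, 97 were called, 56 without the replicate block, 4 with no variance trend and 0 with no filter; 65 to 105 were called with a culture left out. Of a shorter hand-chosen list of IL-4 genes, markers and reference genes, 27 were called, 3 with no variance trend and 0 with no filter, and 20 to 28 with a culture left out. The difference between genotypes had 0 calls under every alternative but the fit with no filter, which called 1 (*Gm6625*, a processed pseudogene named here after its value was seen). The cause of the changes with the trend and the filter was not tested. Over all tested genes the median log2 difference moved from 0.079 to -0.011 by quantile normalization and to 0.033 by median-ratio scaling. The pairing check was positive in every pair, but 0.089 for T43 is under 0.1. Depth is unknown, so for low genes a difference that missed the threshold does not show that there was none.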
